A study of Mus musculus with 3 samples.

Results

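Gsta3, Gsta4, Gstm1, Gstm2, Gsto1, Gstp3, Gpx2 and Nqo1 encode detoxifying and antioxidant enzymes that were read as raw UMI counts, 8 of the 32287 genes in the deposited matrices. Their UMIs (unique molecular identifiers, 1 per captured RNA molecule) were summed in barcodes with 500 or more detected genes and at most 15% mitochondrial UMIs, by library and by cell class, and the classes were gated on other marker genes. The genotype was Scgb1a1-CreER;Sftpc-DreER;R26-TLR, and the cells, labelled lung epithelial cells, came from whole lung. Bleomycin, which injures lung tissue, had been given 4 weeks earlier. In these mice a Cre recombinase under the club cell gene Scgb1a1 and a Dre recombinase under the alveolar type 2 (AT2) gene Sftpc switch on fluorescent reporters. FACS gave 3 sorts of 1 library each: Club-Tracer (tdTomato+), BASC-Tracer (ZsGreen+ and tdTomato+) and AT2-Tracer (ZsGreen+). BASC stands for bronchioalveolar stem cell, a cell at the duct junction that makes both club and AT2 products. All 3 groups carried the same alleles and the same injury, no uninjured library was analysed here, and the number of mice behind a library was not given in the sources used here. With 1 library per group no difference between groups was tested, and every interval below covers counting error only.

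Glutathione transferases join the tripeptide glutathione to reactive compounds so that cells can export them. The alpha (Gsta), mu (Gstm), omega (Gsto) and pi (Gstp) families differ in the compounds they accept, Gpx2 uses glutathione to reduce peroxides, and Nqo1 reduces quinones with NAD(P)H. Many of these genes can be switched on by Nrf2 (gene Nfe2l2), a transcription factor that Keap1 holds low until oxidants or electrophiles modify Keap1. Nrf2 with a small Maf protein binds the antioxidant response element. In the airway, club cells are known for such enzymes and for the cytochrome P450 Cyp2f2.

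The Club-Tracer library kept 3196 barcodes at a median depth of 15406 UMIs, the BASC-Tracer library 1402 at 15222 and the AT2-Tracer library 5859 at 9682. Barcodes kept in both libraries of a pair numbered 6 (Club-Tracer and BASC-Tracer), 23 (Club-Tracer and AT2-Tracer) and 14 (BASC-Tracer and AT2-Tracer). Counting also barcodes that the other library held but that were not kept there, 57 kept barcodes in Club-Tracer, 100 in BASC-Tracer and 63 in AT2-Tracer occurred in another library. A class was the set of barcodes with 2500 or more UMIs that passed 1 marker threshold alone. For AT2 this was 40 UMIs per 10000 of Slc34a2, Napsa, Lamp3, Abca3 and Etv5 together. AT2-gated cells numbered 452, 353 and 1503 in that order of libraries, AT1-gated cells (flat alveolar type 1 cells) 53, 104 and 809, and transitional-gated cells (Krt8, Cldn4 and related genes, seen between AT2 and AT1 states) 117, 50 and 322. Club-gated cells numbered 1033 and 185 in Club-Tracer and BASC-Tracer and ciliated-gated cells 384 and 71, and 152 upper airway secretory-gated and 98 basal-gated cells were measured in Club-Tracer. The AT2-Tracer library, labelled epithelial, also held 1593 macrophage or monocyte-gated cells. The gates named classes by marker level, and the same gate held different cells in different libraries: AT2-gated cells had 54100 CPM (UMIs per 1000000 UMIs of the class) of Scgb1a1 in Club-Tracer, 11452 in BASC-Tracer and 50.3 in AT2-Tracer, and their median for the 6 club markers of the club gate was 6.11, 1.95 and 0 per 10000.

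The alpha genes lie apart on GRCm38, Gsta3 at chr1:21240589-21265661 on the plus strand with 7 exons and Gsta4 at chr9:78182774-78209349 on the plus strand with 7 exons. The mu genes are neighbours on the minus strand of chromosome 3, Gstm1 at chr3:108012255-108017973 and Gstm2 at chr3:107981702-107986453, 25.8 kb apart. Gsto1 (chr19:47854970-47864790, plus) and Gstp3 (chr19:4057477-4059569, minus) share chromosome 19, and Gstp3 lies 19.5 kb from its paralog Gstp1. Gpx2 is at chr12:76792333-76795554 and Nqo1 at chr8:107388225-107403206, both on the minus strand. Reads of a 5′ library start near the transcript's beginning, so the first 300 transcript bases were searched for 50-base stretches shared with another gene. Gstm2 shared 8 of 251 such stretches with Gm6665, Gstm1 shared 2 with Gstm2-ps1, and the other 6 members shared 0. Gstp1 (28.7%) and Gstp2 (38.2%) share many with each other or with Gstp-ps, so the counts of those 2 paralogs are uncertain. Gstp3 shared 0 with any of these. Gsta3, Gsto1 and Gpx2 overlap Gm28836, Cfap43 and Fntb on the other strand, and the strand setting of the counting was not given in the sources used here.

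The promoters of 3 members are printed because their levels moved in different ways between the libraries. Gsta3 holds the only antioxidant response element core among the 7 members with a promoter entry. In AT2-gated cells of Club-Tracer against AT2-Tracer, Gpx2 had the largest ratio of the members and Gstp3 went the opposite way. The printed promoters are RefSeq bases of GRCm38.p6, read 5′ to 3′ on the gene's own strand up to the start of the gene. For Gstp3 the 128 bases outside the annotated gene are given, and the motif TGACNNNGC is in capitals. A stretch of Gclm, which encodes the regulatory subunit of the glutathione synthesis enzyme, is set beside them because it holds the same motif on the other strand.
Gsta3, chr1:21240335-21240584, plus strand: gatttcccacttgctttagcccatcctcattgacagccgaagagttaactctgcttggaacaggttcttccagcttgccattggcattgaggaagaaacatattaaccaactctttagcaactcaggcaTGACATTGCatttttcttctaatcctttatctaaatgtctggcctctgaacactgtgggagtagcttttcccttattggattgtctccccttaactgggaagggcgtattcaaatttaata
Gpx2, chr12:76795555-76795804, minus strand: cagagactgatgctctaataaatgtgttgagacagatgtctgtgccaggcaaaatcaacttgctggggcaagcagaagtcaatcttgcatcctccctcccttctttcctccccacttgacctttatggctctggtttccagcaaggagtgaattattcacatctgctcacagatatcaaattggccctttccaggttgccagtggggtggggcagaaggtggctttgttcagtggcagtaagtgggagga
Gstp3, chr19:4059570-4059697, minus strand: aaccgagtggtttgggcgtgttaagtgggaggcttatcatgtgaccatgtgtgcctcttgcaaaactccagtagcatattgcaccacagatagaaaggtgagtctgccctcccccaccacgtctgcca
Gclm, chr3:122245398-122245456, plus strand: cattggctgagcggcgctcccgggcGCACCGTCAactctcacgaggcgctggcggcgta
The Gsta3 match, TGACATTGC, lies 121 to 113 bases before the RefSeq start, and the Gclm match, GCACCGTCA, 134 to 126 bases before it. Of the 7 members with a RefSeq promoter (all but Gsta4), 1 held TGACNNNGC in its 250 bases on either strand, against 10.2% of 32851 promoters. None of the 7 held the AP-1 motif TGANTCA (6.75% of promoters) or the aryl hydrocarbon receptor core TNGCGTG (4.10%). A match describes these letters and was not tied to binding.

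Each member's levels were ordered over the 17 sums of a class and library with 50 or more cells. Airway classes held the highest sum for 6 of the 8 members, and the exceptions were Gsto1, whose exception rested on 1 cell, and Gstp3. The share of all genes highest in an airway class was not read, so the count of 6 has no background. Ciliated-gated cells alone were 2-fold above AT2-gated cells for 34% of genes in Club-Tracer and 30.4% in BASC-Tracer. Gsta3 was highest in club-gated cells, at 496 CPM (95% interval 487 to 505) in Club-Tracer and 459 CPM (443 to 477) in BASC-Tracer. Upper airway secretory-gated cells followed at 306 CPM, ciliated-gated cells had 148 CPM in Club-Tracer and 191 CPM in BASC-Tracer, and macrophage or monocyte-gated cells of AT2-Tracer had 2.59 CPM. Gsta4, which acts on the lipid peroxidation product 4-hydroxynonenal, was highest in upper airway secretory-gated cells at 740 CPM (715 to 766). Its basal-gated sum of 621 CPM and club-gated sum of 606 CPM in Club-Tracer had overlapping intervals, and every epithelial class of every library had at least 88.7 CPM.

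Gstm1 was highest in ciliated-gated cells, at 1927 CPM (1891 to 1964) in Club-Tracer and 1706 CPM (1637 to 1776) in BASC-Tracer, then in basal-gated cells at 1260 CPM and club-gated cells at 963 CPM in Club-Tracer. It was also counted in macrophage or monocyte-gated cells, at 156 CPM in AT2-Tracer and 175 CPM in BASC-Tracer. Its neighbour Gstm2 had another order, with 514 CPM in basal-gated and 486 CPM in club-gated cells of Club-Tracer, whose intervals overlapped, and 213 CPM in ciliated-gated cells. In macrophage or monocyte-gated cells of AT2-Tracer Gstm2 had 3.43 CPM. The 2 neighbouring genes thus had different orders across the classes.

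Gsto1, whose enzyme reduces dehydroascorbate and methylated arsenic compounds, was highest in transitional-gated cells of Club-Tracer at 779 CPM (747 to 812). Its interval overlapped that of upper airway secretory-gated cells, 760 CPM (735 to 786), and basal-gated (474 CPM) and ciliated-gated cells (437 CPM) of the same library followed. In the transitional-gated sum 1 cell held 307 of the 2191 Gsto1 UMIs. Without the highest cell of each class the transitional-gated sum was 680 CPM and the upper airway secretory-gated sum 714 CPM, the other order, and the median over cells was 2.53 and 3.81 UMIs per 10000. Transitional-gated cells had 291 CPM of Gsto1 in BASC-Tracer and 78.8 CPM in AT2-Tracer. AT2-gated cells were low in all 3 libraries, between 13.8 and 72.4 CPM. Gstp3 was the member with the reverse order: AT2-gated cells of AT2-Tracer were highest at 59.5 CPM (56.6 to 62.5), ahead of ciliated-gated cells at 34.7 CPM in Club-Tracer, and club-gated cells had 3.70 CPM. Its remaining epithelial sums lay between 2.81 and 30.7 CPM, most with overlapping neighbours.

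Gpx2 was highest in ciliated-gated cells of Club-Tracer, 529 CPM (510 to 548). Transitional-gated cells of the same library had 499 CPM (473 to 525), an overlapping interval, and ciliated-gated cells of BASC-Tracer had 446 CPM (412 to 483). AT2-gated cells of AT2-Tracer (26.6 CPM) and AT1-gated cells of AT2-Tracer (34.8 CPM) had the lowest epithelial levels of Gpx2. Nqo1 reached 107 CPM (90.7 to 126) in ciliated-gated cells of BASC-Tracer and 96.9 CPM (88.9 to 105) in those of Club-Tracer. Club-gated cells had 68.0 and 57.4 CPM of Nqo1 in BASC-Tracer and Club-Tracer, and no other sum passed 30.6 CPM.

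**Figure D1:**
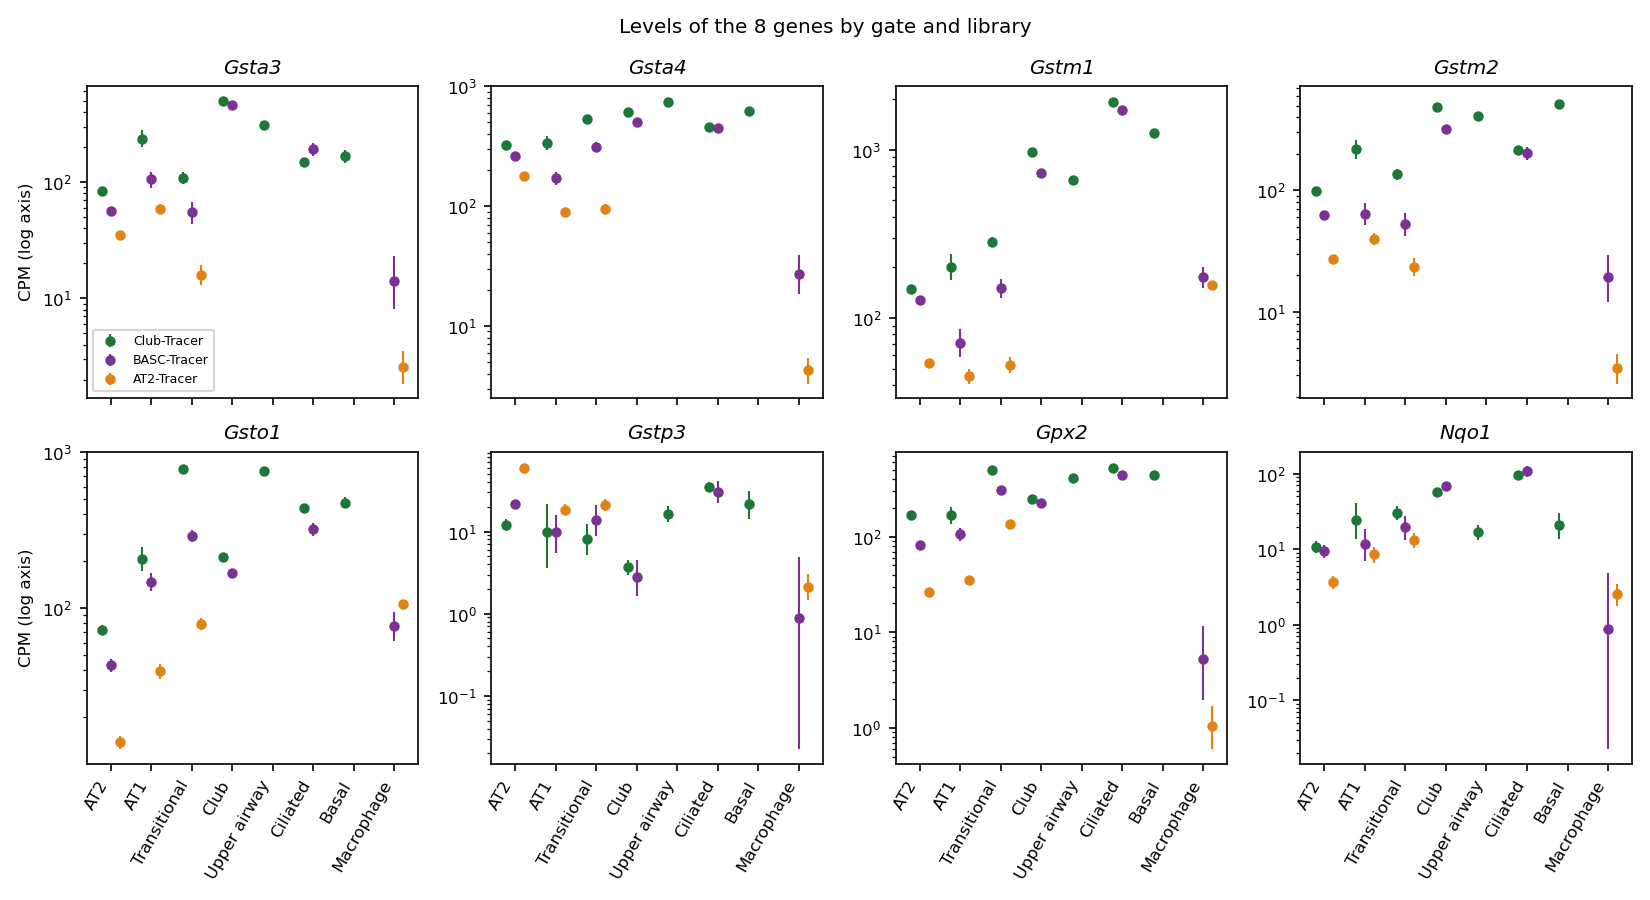
Level of each of the 8 members as CPM on a log axis, by gated class and library, with bars for the exact Poisson 95% interval. Airway classes held the highest sum for 6 members, and the share of all genes for which they do was not read. Gsto1 was highest in transitional-gated cells of Club-Tracer (779 CPM, 680 CPM without its highest cell) and Gstp3 in AT2-gated cells of AT2-Tracer (59.5 CPM).

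Within 1 library the sequencing run is shared, so classes were compared there by size: 2-fold or more, as the log2 ratio of CPM plus 5, at 50 CPM or more in either class. In Club-Tracer, 5 of 8 members were that much higher in club-gated than in AT2-gated cells, against 3.55% of all 2561 genes at the floor. The log2 ratios were 2.66 for Gstm1, 2.49 for Gsta3, 2.24 for Gstm2, 1.98 for Nqo1 and 1.49 for Gsto1. Gsta4 (0.91) and Gpx2 (0.54) stayed under the 2-fold size and Gstp3 (-0.97) was under the floor. In BASC-Tracer the count was 6 of 8 against 4.06% of genes, with Gpx2 added at 1.40 and Gsta3 at 2.93. The count for Club-Tracer depended on the scaling: it was 7 with Scgb1a1 left out of the total (Gsta4 1.43 and Gpx2 1.06) and 7 with median ratio scaling (Gsta4 1.41 and Gpx2 1.04), where 11.8% and 12.5% of genes differed in either direction, against 16.2% in the main scaling.

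Upper airway secretory-gated cells were 2-fold higher than AT2-gated cells of Club-Tracer for 6 members against 4.61% of genes, led by Gsto1 at 3.31 and Gstm1 at 2.12. Basal-gated cells were higher for 4 members against 16.2% of genes, led by Gstm1 at 3.05 and Gsto1 at 2.63. Ciliated-gated cells were higher for 5 members in Club-Tracer, where 34% of all genes were, and for 6 in BASC-Tracer, where 30.4% were. Gstm1 led both with 3.66 and 3.69, and Nqo1 followed with 2.69 and 2.96. Set against club-gated cells of Club-Tracer, ciliated-gated cells were 2-fold lower for Gsta3 (-1.71) and Gstm2 (-1.17) against 5.21% of genes. Gpx2 (1.07) and Gsto1 (1.03) were 2-fold higher there, but 49.7% of genes were and the median of all genes was 1.00, and with median ratio scaling Gsto1 was at -0.029.

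Macrophage or monocyte-gated cells of AT2-Tracer differed from AT2-gated cells of the same library in both directions. Gsto1 (2.56) and Gstm1 (1.45) were 2-fold higher against 22.9% of genes, and Gsta4 (-4.29) and Gstp3 (-3.18) were 2-fold lower against 21.2%. Gpx2 had 1.04 CPM there, Gsta3 2.59 CPM and Gstm2 3.43 CPM, all under the floor in both classes.

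AT2-gated cells differed between the sorts for most members. Gpx2 had 170 CPM (162 to 177) in Club-Tracer, 82.1 CPM (76.7 to 87.8) in BASC-Tracer and 26.6 CPM (24.7 to 28.7) in AT2-Tracer. Gsto1 had 72.4 CPM (67.6 to 77.4), 43.1 CPM (39.2 to 47.3) and 13.8 CPM (12.4 to 15.2) in the same order. Gstm2 had 99.0, 62.5 and 27.1 CPM. For these 3 genes, and also for Gsta3, Gsta4 and Gstm1, the Club-Tracer cells were highest and the AT2-Tracer cells lowest, with no overlap of the intervals between libraries. Gstm1 had 148, 127 and 53.8 CPM, Gsta3 84.4, 56.1 and 34.9 CPM, and Gsta4 321, 262 and 177 CPM. Gstp3 ran the other way, with 12.1 CPM (10.2 to 14.3) in Club-Tracer, 21.5 CPM (18.8 to 24.5) in BASC-Tracer and 59.5 CPM (56.6 to 62.5) in AT2-Tracer. Nqo1 was low in all, with 10.8, 9.40 and 3.64 CPM and overlapping intervals for Club-Tracer and BASC-Tracer.

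In the AT2-gated cells of Club-Tracer against those of AT2-Tracer, 5 of 8 members were 2-fold or more higher, where 2.42% of 2928 genes were, and 1 was 2-fold or more lower, where 3.59% were. The ratios of CPM were 6.37 (95% interval 5.85 to 6.95) for Gpx2, 5.25 (4.64 to 5.95) for Gsto1, 3.66 (3.33 to 4.02) for Gstm2, 2.75 (2.56 to 2.95) for Gstm1 and 2.42 (2.21 to 2.64) for Gsta3. Gsta4 was 1.82 times as high (1.74 to 1.90), under the 2-fold size, and Nqo1 was 2.97 times as high (2.26 to 3.90) at a level under the floor. Gstp3 was 4.92 times as high (4.14 to 5.89) in AT2-Tracer as in Club-Tracer. The median log2 ratio of the 7 members at the floor was 1.38, beside -0.12 for all genes at the floor. A floor of 100 CPM left 2 of the 6 differences.

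In BASC-Tracer against AT2-Tracer, which shares the AT2-Tracer library with the comparison above, 3 members were 2-fold or more higher, where 1.22% of 3022 genes were, and 1 was lower, where 0.695% were. The ratios were 3.08 (2.79 to 3.41) for Gpx2, 2.36 (2.19 to 2.55) for Gstm1 and 2.31 (2.07 to 2.57) for Gstm2, and Gstp3 was 2.77 times as high (2.41 to 3.20) in AT2-Tracer. Gsto1 was 3.13 times as high in BASC-Tracer (2.72 to 3.60) at a level under the floor. These differences were close to the threshold: 1 of the 4 was left with a pseudocount of 20 CPM and 1 with a floor of 100 CPM. A single BASC-Tracer cell held 341 of the 1325 Gstm1 UMIs, and without it Gstm1 had 94.9 CPM and a log2 ratio of 0.80.

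**Figure D2:**
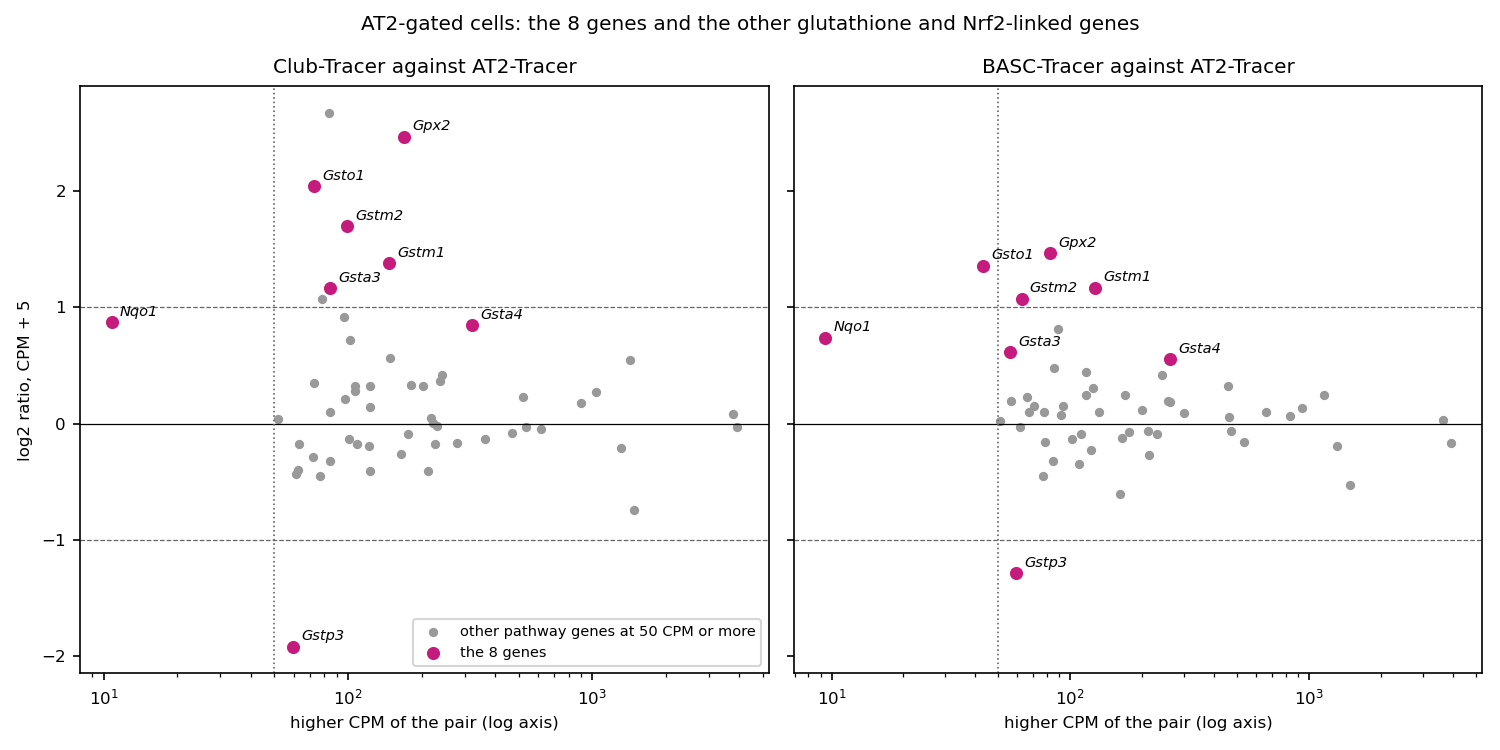
Vertical axis: log2 ratio (CPM plus 5) in AT2-gated cells of Club-Tracer (left) and BASC-Tracer (right), each against AT2-Tracer, with dashed lines at 2-fold; horizontal axis: the higher CPM of the pair on a log axis, with the floor of 50 CPM dotted. Coloured points are the 8 members and grey points the other pathway genes at the floor. Gpx2 is the highest of the members in both (2.47 and 1.46), with 1 other gene above it in Club-Tracer (Mgst2, 2.67), and Gstp3 is the lowest (-1.92 and -1.28).

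Club-cell RNA moved with these differences. Of 8 club markers, 6 were 2-fold or more higher in AT2-gated cells of Club-Tracer than in those of AT2-Tracer, and 3 were in BASC-Tracer. Without Scgb1a1 their summed level was 3877 CPM in Club-Tracer, 2724 CPM in BASC-Tracer and 897 CPM in AT2-Tracer, with 0, 1 and 1 of the 8 at 0. Cyp2f2 had 703, 376 and 9.30 CPM, while the AT2 product Sftpc had 70448, 72901 and 95174 CPM. When AT2-gated cells were restricted to those with fewer than 10 club-marker UMIs per 10000 (303, 293 and 1502 cells), Gpx2 had 141 CPM in Club-Tracer, 76.7 CPM in BASC-Tracer and 26.7 CPM in AT2-Tracer. Gsto1 had 64.5, 39.6 and 13.8 CPM, Gstm2 80.9, 51.6 and 27.1 CPM, and Gstp3 13.1, 23.8 and 59.5 CPM. Cyp2f2 still had 310, 186 and 8.60 CPM in these cells, and the part of that remaining club-cell RNA was not tested. These 4 kept a 2-fold difference between Club-Tracer and AT2-Tracer in cells with few club markers, with log2 ratios of 2.21, 1.89, 1.42 and -1.83, where 1.88% of genes were higher and 3.08% lower. Gsta3 (49.98 against 34.7 CPM, log2 0.47) and Gstm1 (83.0 against 53.7 CPM, log2 0.58) did not.

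The 149 AT2-gated cells of Club-Tracer with 10 or more club-marker UMIs per 10000 had 158 CPM of Gsta3, 286 CPM of Gstm1 and 231 CPM of Gpx2. The 60 such cells of BASC-Tracer had 107 CPM of Gsta3, 382 CPM of Gstm1 and 112 CPM of Gpx2. The cell with 341 Gstm1 UMIs was among these 60, and without it they had 174 CPM of Gstm1. Gstp3 was lower in both sets, 9.95 and 8.76 CPM, than in the cells with fewer club markers. Ly6a, which encodes a surface protein, and Chia1, a chitinase gene, also followed the order of the sorts in all AT2-gated cells, with 815, 338 and 157 CPM and with 1181, 574 and 167 CPM. Their part in the member differences was not tested.

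**Figure D3:**
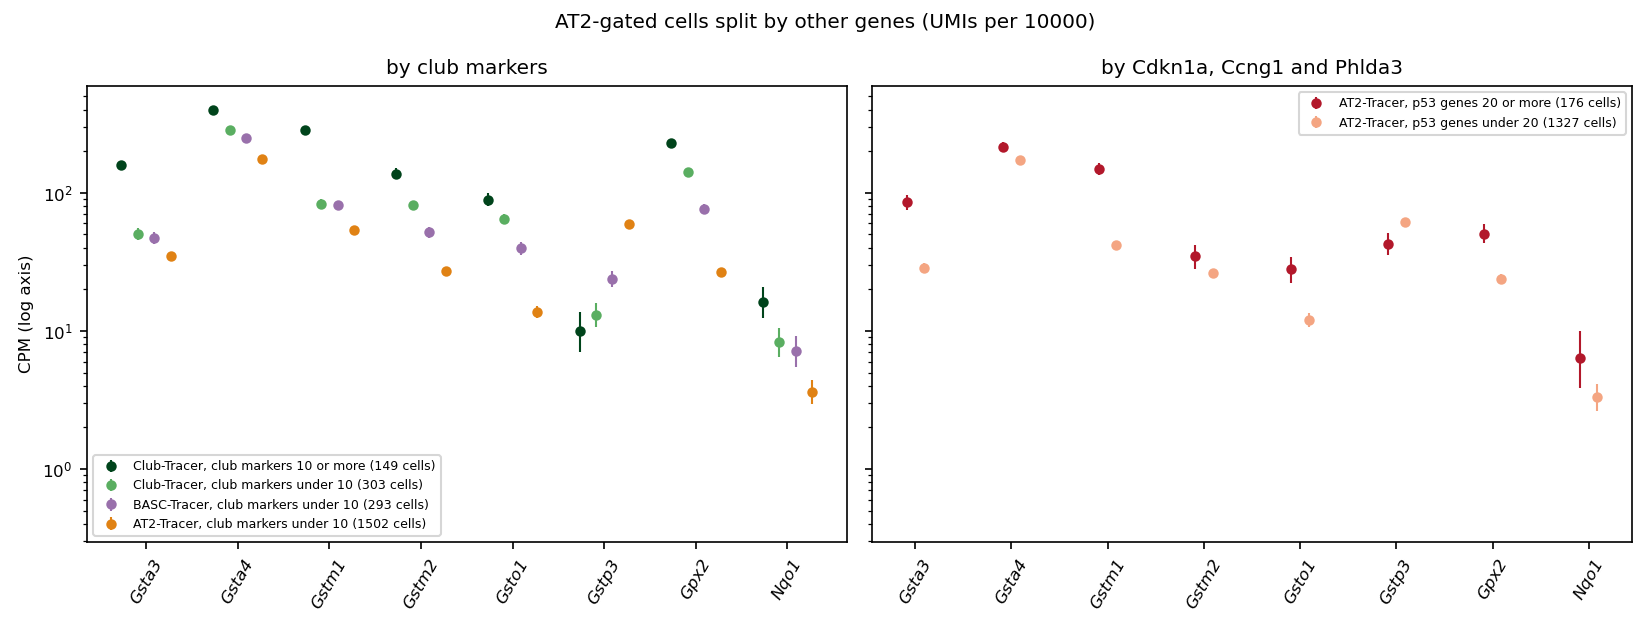
Level of each member as CPM on a log axis with Poisson 95% intervals, in AT2-gated cells split by club-marker UMIs per 10000 (left, by library; under 10, and 10 or more for Club-Tracer) and by p53 target UMIs (right, AT2-Tracer). Gpx2 keeps the order of the libraries in cells with few club markers (141, 76.7 and 26.7 CPM), while Gsta3 moves closer together (49.98, 46.9 and 34.7 CPM).

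AT2-gated cells were also split within AT2-Tracer, by 3 p53 target genes (Cdkn1a, Ccng1 and Phlda3). The 176 cells with 20 or more of these UMIs per 10000 had 149 CPM of Gstm1 against 42.1 CPM in the other 1327, a log2 ratio of 1.71. Gsta3 had 85.6 against 28.7 CPM, a log2 ratio of 1.43, and 1.71% of genes were 2-fold higher. Gpx2 (0.96) and Gsto1 (0.95) were under 2-fold and Gstp3 was at -0.48. In BASC-Tracer the same split gave 40 and 313 cells, with both genes under 2-fold. Gstm1 had 201 against 120 CPM there, and Gsta3 93.2 against 52.7 CPM. Without the highest cell of each set Gstm1 had 168 against 84.9 CPM. Cdkn1a, among the 3 genes of the split, had 329 CPM over all AT2-gated cells of Club-Tracer and 567 CPM over those of AT2-Tracer. Gstm1 and Gsta3 had the opposite order, and the part of p53 targets in the library differences was not tested.

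The other genes of the pathway were read in the same comparison. The members were chosen with earlier results known, so a contrast between them and these genes supports nothing. Of 83 listed genes 47 reached the floor in AT2-gated cells of Club-Tracer against AT2-Tracer, 2 were 2-fold higher, 0 were lower, and the median log2 ratio was 0.00. Mgst2, a microsomal glutathione transferase, had 83.4 CPM in Club-Tracer and 8.89 CPM in AT2-Tracer, a ratio of 9.38 (8.14 to 10.8), and 45.9 CPM in BASC-Tracer. Cbr3, a carbonyl reductase, had 78.4 against 34.6 CPM, a log2 ratio of 1.07. Among the 8 other transferases at the floor, Gstz1 (0.72) and Mgst2 were at the upper end and Gstt1 (0.10) and Gstk1 (-0.20) at the lower end.

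Genes of glutathione synthesis were near even, 5 of 9 at the floor with a median log2 ratio of 0.05. Gclm had 202 CPM in Club-Tracer and 161 CPM in AT2-Tracer, and Gclc, the catalytic subunit, had 248 and 280 CPM. Glutathione reductase, Gsr, was at 0.32. Peroxide-removing enzymes had 8 of 11 at the floor and a median of -0.17, from Prdx6 at 0.55 to Gpx1 at -0.74 (888 against 1486 CPM). Gpx1 thus had the opposite direction to Gpx2, which is from the same enzyme family.

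Thioredoxin system genes ran from Txnip (0.42), which binds thioredoxin, to Txnrd1 (-0.41), the reductase, and NADPH-supplying enzymes from Idh1 (0.92, 96.1 against 48.6 CPM) to Taldo1 (-0.09). Heme oxygenase Hmox1 was at 0.56 (149 against 99.4 CPM) and biliverdin reductase Blvrb at -0.45. Among Nrf2 regulators, 6 of 9 reached the floor with none at 2-fold, and the ends were Maff (0.04) and Bach1 (-0.43), a repressor of Nrf2 targets. Nfe2l2 itself had 333 CPM in Club-Tracer, 459 CPM in BASC-Tracer and 365 CPM in AT2-Tracer. In BASC-Tracer against AT2-Tracer 46 of the 83 genes reached the floor, 0 were 2-fold higher or lower, and Gclm (104 against 161 CPM, -0.60) was at the low end.

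Club-gated cells of Club-Tracer and BASC-Tracer had no member that differed 2-fold, where 0.576% of 2083 genes did, and the log2 ratios ran from -0.23 for Nqo1 to 0.60 for Gstm2. Gstm2 had 486 CPM (477 to 495) in Club-Tracer and 319 CPM (305 to 333) in BASC-Tracer, Gstm1 963 and 728 CPM (0.40), and Gsto1 212 and 169 CPM (0.32). Gsta4 (0.26), Gstp3 (0.16), Gpx2 (0.14) and Gsta3 (0.11) were nearer to even, beside a median of -0.12 for all genes. Without barcodes that occurred in another library, 139 of the 185 club-gated cells of BASC-Tracer and 1018 of Club-Tracer were left, still with 0 members at 2-fold, and 2.02% of genes differed. In ciliated-gated cells no member differed 2-fold either, where 0.526% of 3992 genes did, with log2 ratios from -0.35 for Gsta3 to 0.44 for Gsto1. None of the 83 other pathway genes differed 2-fold in either class.

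Transitional-gated cells had higher levels of Gsto1 and Gpx2 than AT2-gated cells in every library. For Gsto1 the log2 ratios were 3.34 in Club-Tracer, 2.62 in BASC-Tracer and 2.16 in AT2-Tracer, and for Gpx2 1.53, 1.84 and 2.16. At the floor these were the 2 members of 8 that were 2-fold higher in each library, against 15.3%, 14.2% and 16% of genes. Gstp3 was lower in transitional-gated than in AT2-gated cells of AT2-Tracer by 1.30 on the log2 scale (21.2 against 59.5 CPM), 1 member against 7.55% of genes. In AT1-gated cells 3 members were 2-fold higher than in AT2-gated cells in Club-Tracer (Gsto1 1.46, Gsta3 1.43 and Gstm2 1.10, against 20.8% of genes), and 1 in BASC-Tracer (Gsto1 1.66, against 15.2%). With median ratio scaling the count for Club-Tracer went from 3 to 0 (Gsta3 0.97 and Gstm2 0.63, with Gsto1 at 0.999), where 21.7% of genes differed in either direction. In AT2-Tracer none was 2-fold higher at the floor, where 15.2% of genes were, and Gstp3 (-1.46) was lower, where 5.65% were.

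Between libraries, transitional-gated cells of Club-Tracer had 6 members 2-fold or more higher than those of AT2-Tracer, where 3.48% of 3679 genes were. Gsto1 was 9.89 times as high (8.96 to 10.9), Gsta4 5.64 times (538 against 95.4 CPM), Gstm1 5.37 times (282 against 52.5 CPM) and Gpx2 3.67 times (499 against 136 CPM). Gsta3 had 108 against 16.0 CPM and Gstm2 135 against 23.5 CPM. Gstp3 was lower, 8.18 against 21.2 CPM, under the floor. These gates held unlike cells: the 8 club markers without Scgb1a1 summed to 3802 CPM in the transitional-gated cells of Club-Tracer and to 157 CPM in those of AT2-Tracer, where 2 of them were at 0, and Cyp2f2 was at 632 and 2.23 CPM. The part of those differences was not tested.

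The 50 transitional-gated cells of BASC-Tracer also had 6 members 2-fold or more higher than AT2-Tracer, where 1.64% of genes were, but single cells carried several of them. Of their 236 Gstm1 UMIs 160 were in 1 cell, and without the highest cell of each member 2 were left, Gsto1 and Gsta4. AT1-gated cells of BASC-Tracer were 2-fold higher than those of AT2-Tracer for Gsto1 (147 against 39.5 CPM, log2 1.77) and Gpx2 (106 against 34.8 CPM, 1.48), where 0.998% of genes were. With doubled gate thresholds 1 was left, Gsto1.

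The share of AT2-gated cells with a UMI was also read with every cell thinned to 1500 UMIs. In Club-Tracer 15.7% of these cells had a Gpx2 UMI (12.5 to 19.4, Clopper-Pearson), in BASC-Tracer 10.5% (7.49 to 14.2) and in AT2-Tracer 2.79% (2.02 to 3.76). Unthinned, the shares were 63.5%, 52.97% and 21.4% at median depths of 25508, 29108 and 17327 UMIs. Gsta4 was found in 35.6%, 29.2% and 19.8% of thinned cells, and Gstp3 in 1.11%, 1.98% and 8.32%. Nqo1 was in 1.33% (0.489 to 2.87) of thinned Club-Tracer cells and 1.98% (0.801 to 4.04) of thinned BASC-Tracer cells, overlapping intervals in the reverse order of its CPM. In macrophage or monocyte-gated cells of AT2-Tracer, Gpx2 was in 0.126% and Gsta4 in 0.628% of thinned cells, and Gstm1 was in 18.8%.

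Free RNA was read from barcodes with fewer than 500 genes and at most 15% mitochondrial UMIs that occurred in 1 library only, 412 in Club-Tracer, 347 in BASC-Tracer and 730 in AT2-Tracer. Most barcodes under 500 genes exceeded that limit: 475 of 1872 were within it in Club-Tracer, 357 of 959 in BASC-Tracer and 811 of 2686 in AT2-Tracer. Whether the barcodes used were empty droplets or damaged cells was not tested, so free RNA names this pool only. In Club-Tracer these held 0.563 Gstm1, 0.260 Gsta4, 0.209 Gsta3 and 0.121 Gpx2 UMIs per barcode. AT2-gated cells of the same library held 3.81, 8.29, 2.18 and 4.38 UMIs per cell, and over the 8 members they held 6.8 (Gstm1) to 42.8 (Gstp3) times the free RNA. The club genes Cyp2f2 and Scgb1a1 themselves stood at 6.47 and 9.70 times the free RNA there, and Gstm1 (6.77), Nqo1 (7.66) and Gsta3 (10.4) were near those values. Gsta4 had 9.26 UMIs per 100 Cyp2f2 UMIs in the low barcodes and 45.7 in AT2-gated cells, and Gpx2 4.33 and 24.1. For Gstm1 (20.1 and 21.0) and Nqo1 (1.30 and 1.54) the ratio to Cyp2f2 was nearly the same in both, so these values do not set their levels in AT2-gated cells of Club-Tracer apart from club-cell RNA. Of 136 sums of a member in a class and library, 127 were at 2 or more times the free RNA. These multiples were not corrected for the greater depth of gated cells. The share of all genes at that size was not read, so the count of 127 has no background. After subtracting the mean of these barcodes from each cell, the AT2-gated comparisons gave the same counts, 6 members for Club-Tracer and 4 for BASC-Tracer. The subtraction covers only RNA at the level of these barcodes.

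**Figure D4:**
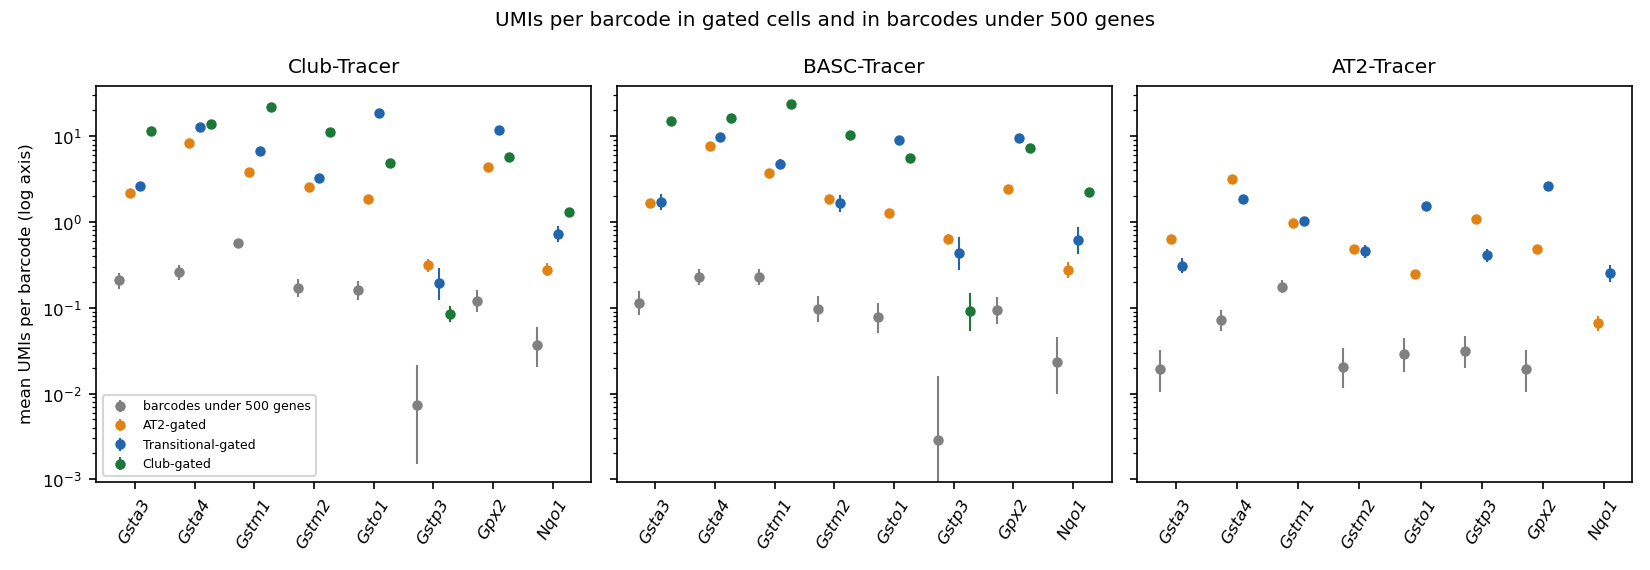
Mean UMIs per barcode of each member in AT2-, transitional- and club-gated cells and in barcodes under 500 genes (free RNA), by library, on a log axis with Poisson 95% intervals; a mean of 0 (Nqo1 in the low barcodes of AT2-Tracer) is not drawn. AT2-gated cells of Club-Tracer held 6.8 to 42.8 times the free RNA of that library per barcode, without a correction for their greater depth.

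The genes most like each member were ranked by Pearson r of log2(CPM + 5) over the 17 sums of a class and library, which share libraries and free RNA, so r is a description. The nearest of 6197 genes to Gsta3 was Gstm2 (r = 0.95), followed by Por (0.93), the P450 reductase, and Ces1d (0.92), a carboxylesterase. Gstm2 was nearest to Gsta3 (0.95), Slc16a11 (0.94) and Cyp2f2 (0.92). Gsta4 had Ptpn13 (0.95) and Wfdc2 (0.94), and Gpx2 had Ly6a (0.96), Foxa1 (0.95), an endoderm transcription factor, and Dsg2 (0.95), a desmosomal cadherin. Nqo1 had Pfn2 (0.95), the glutathione reductase Gsr (0.93) and Aldh1a1 (0.93), a retinaldehyde dehydrogenase. Gstm1 had Gfra1 (0.91), Sult1d1 (0.91) and Enah (0.90), and Gsto1 had Plscr1 (0.87), Fam107b (0.85) and Pir (0.84). Gstp3 had Steap2 (0.91), Prdx4 (0.85) and Ank3 (0.84), and with the other 7 members its r ran from -0.13 to 0.35. The highest r of a member with Nfe2l2 was 0.05 (Gstm1), and the level of Nfe2l2 lay between 274 and 498 CPM in all 17 sums. Other Nrf2-linked genes had higher r with some members: Gclc 0.77 with Gpx2 and 0.73 with Gsta4, and Gclm 0.62 with Gpx2 and 0.62 with Nqo1. Of the 24 genes 12 were also among the top 3 when the classes of all libraries were summed, and 11 with Spearman's rho.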

How the data were processed

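Single-cell RNA was measured with a 10x 5′ kit in 3 libraries. The authors deposited raw UMI counts per gene and barcode, made with Cell Ranger 6.1.1 and the mm10 build per the submitters' processing notes; the annotation release was not given in the sources used here. The deposited counts were summed by library and gate and given as CPM with exact Poisson intervals at 95% confidence. Ratios have exact conditional intervals. Log2 ratios add 5 CPM, and a difference of 2-fold at 50 CPM or more is a size, not a test. Coordinates are from GENCODE M21 (GRCm38), promoters from RefSeq. Python 3.11.15, numpy 2.4.6, scipy 1.17.1, pandas 2.3.3 and scanpy 1.11.5 were used, and the sums and intervals were tested on simulated data. No barcode was removed as a doublet; leaving out those that Scrublet scored highest was an alternative. The members and lists were chosen with earlier results of these data known, and gate and subset thresholds were set after the counts were seen. Named genes are the members, the 2 at each end of each pathway list, and the 3 most like each member (1 of these is not reported here); Nfe2l2, Gclm, Gclc, Cyp2f2, Sftpc, Scgb1a1, Ly6a, Chia1 and Cdkn1a were named besides.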

Additional observations from a re-analysis of the deposited data

Results flagged for a closer look

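Gsta4 was 0.74 higher on the log2 scale in transitional-gated than in AT2-gated cells of Club-Tracer (538 against 321 CPM), and in AT2-Tracer it was at -0.86 (95.4 against 177 CPM), the opposite direction. The result is listed because the same contrast went in opposite directions in the 2 libraries by more than 0.5 each. With 1 library each the difference was not tested, and the transitional gates held unlike cells, as the Cyp2f2 levels of 632 and 2.23 CPM show.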

How the results depend on the processing

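No paired analysis was possible because each group had 1 library. Alternatives chosen after seeing the data were the free RNA subtraction, leaving out shared barcodes, Scgb1a1 or the highest cell, and the limit on club markers. Counts of members that differed 2-fold in AT2-gated cells went from 6 to 2 for Club-Tracer with a floor of 100 CPM. For BASC-Tracer they went from 4 to 1 with that floor or a pseudocount of 20 CPM, and to 2 with club markers under 10 per 10000. In transitional-gated cells of BASC-Tracer they went from 6 to 2 without Scrublet doublets or the highest cells, and in AT1-gated cells from 2 to 1 at doubled gate thresholds. Gstm1 in transitional-gated cells of BASC-Tracer turned to -0.074 without Scrublet doublets, and Gsto1 in ciliated against club-gated cells to -0.029 with median ratio scaling. Genes most like the members kept 12 of 24 over summed classes and 11 with Spearman's rho. Club-gated and ciliated-gated cells gave 0 members between libraries under every setting run. Free RNA read from endothelial or macrophage cells of each library was not run, since the endothelial gate held 1, 0 and 5 cells.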

Other observations

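In Club-Tracer, 28 cells passed both the AT2 and the club gate and entered no comparison. They had 433 CPM of Gsta4, 402 of Gstm1, 218 of Gsta3, 186 of Gstm2, 138 of Gpx2, 78.4 of Gsto1 and 27.6 of Nqo1, and 0 Gstp3 UMIs (95% Poisson interval up to 5.36 CPM). In AT2-Tracer, 22 fibroblast or smooth muscle-gated cells had 302 CPM of Gstm1, 227 of Gstm2 and 120 of Gsta3.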
